A study of Homo sapiens with 25 samples.

Results

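The genes described here are 37 human genes of homologous recombination, of the Fanconi anaemia pathway and of mismatch repair. They were chosen by symbol from a fixed list, with earlier results of these data known. All were found among the 31919 genes of the deposited table. They were followed in DND-41, an established human line of T-cell acute lymphoblastic leukaemia, by bulk RNA sequencing of cells kept in medium with graded histidine, an amino acid that human cells must take up. No drug, transgene or deletion was named in the labels, and the line was the same in every group. On day 6 there were 3 libraries without histidine, 3 at 12.5%, 2 at 25%, 3 at 50% and 3 at 100%. On day 9 there were 3 at 12.5%, 3 at 25%, 2 at 50% and 3 at 100%, and no library without histidine. The labels do not say that the replicates of a group were separate cultures, and p-values here speak only of the spread among libraries, which may be technical.

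Homologous recombination repairs a broken chromosome by copying an intact sister. Nucleases first resect the broken end, the BRCA proteins then help to build a protein filament on the bared strand, further factors help that strand to invade the sister, and the joined molecules are dissolved by the BLM complex or cut by nucleases such as MUS81-EME1. The Fanconi pathway handles strands that are crosslinked to each other: a core ubiquitin ligase with its conjugating enzyme UBE2T marks the paired proteins FANCD2 and FANCI, which act with the recombination proteins at stalled forks. Most of this work is done in dividing cells, and many of these genes are known as targets of the cell cycle factors of the E2F family.

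Values are normalized counts per gene. A change is a difference between group means on the log2(normalized count + 1) scale, which understates the change of low genes, and is given with its standard error (SE). A gene is said to have risen or fallen where limma's moderated test, adjusted by Benjamini-Hochberg over the 18799 genes tested, gave an adjusted p under 0.05. All 37 members passed the filter on low values (10 or more normalized counts in 2 or more libraries). The levels of a day were each set against the same 100% libraries, so their comparisons are not independent of each other.

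The libraries held 14425 to 16263 genes at 10 normalized counts or more, and their normalized counts summed to 13.6 M to 16.1 M, while read totals are unknown. The T-cell markers CD3D, CD3E, CD3G, CD7, RAG1 and NOTCH3 were at 10 or more in all 25 libraries, whereas PTCRA stayed under 10 in each (highest 8.14). Of the 5 B-cell markers in the table CD79A was high throughout (9400 to 22251), EBF1 (168 to 418) and CD79B (54.5 to 164) were also at 10 or more in every library, and PAX5 reached at most 12.1. The myeloid list summed to at most 36.8 and the erythroid list to at most 7.89. Libraries differed in the keratins KRT8, KRT18 and KRT19, genes of epithelial cells. Their sum passed 100 in replicates 1 and 2 at 100% on day 6 (383 and 1406), replicates 1 and 2 at 50% on day 6 (1196 and 119) and replicates 1 and 3 at 25% on day 9 (788 and 1358), and was at most 60.3 elsewhere. The counts without these 6 libraries are also given, although 1 control is then left on day 6. The part of these keratins in the results was not tested otherwise. 5.8S ribosomal RNA was at 74.8 to 88.2 in the 12.5% libraries of day 6 and 153 to 1181 in the 100% libraries of that day, and its part in the results was not tested. Replicate 1 without histidine carries day 6 in its title and day 9 in another label, and was kept on day 6. The series' own design text names days 3 and 6, whereas the sample labels name days 6 and 9, which are used throughout, so the true days are uncertain.

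Promoter sequence was at hand for 33 of the members in 45 RefSeq windows on GRCh38.p14, each from 250 bases before to 50 bases after a transcription start. Letters like those bound by E2F factors (TTTGGCGC, TTTCCCGC, TTTGCCGC or TTTCGCGC on either strand) stood in 9 of the 45 windows (20.0%), against 3.31% of all 35116 windows of that length. They belong to XRCC2, FANCA, FANCC, FANCD2, RMI1, EXO1, MSH6 and PMS2, and both PMS2 windows hold the same site. By gene this was 8 of 33 (24.2%), against 3.99% of all 27305 genes. The windows of all genes were not matched to those of the members in expression or base composition. CCAAT, the letters of NF-Y, stood in 40.0% of the members' windows and 34.6% of all windows. TTTGAA or TTCGAA, letters of the cell cycle element called CHR, stood in 6.67% and 16.4%. Printed here are 6 stretches around the E2F-like letters, read 5′ to 3′ on the gene's strand, with the matching letters in capitals. The first 3 come from genes that fell at 12.5% histidine on day 6 and the last 3 from genes that rose at 25% on that day. They were picked by these values, to show that genes with such letters differed in the levels at which they changed. XRCC2 and FANCD2 of the first 3 also fell at 25% on day 6, calls that ended without replicate 2 at 25%. The rise of RMI1 lost its call without either library at 25%. Without histidine all 6 of these genes fell, and at 12.5% on day 6 the last 3 were not called. A match is a description of the letters and not of binding.
XRCC2, chr7:152676112-152676150, minus strand: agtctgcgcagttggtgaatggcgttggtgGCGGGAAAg
FANCA, chr16:89816782-89816849, minus strand: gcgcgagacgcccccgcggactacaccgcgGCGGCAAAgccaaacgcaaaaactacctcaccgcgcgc
FANCD2, chr3:10026405-10026466, plus strand: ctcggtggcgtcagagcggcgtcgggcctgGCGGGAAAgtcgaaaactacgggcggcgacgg
RMI1, chr9:83980743-83980810, plus strand: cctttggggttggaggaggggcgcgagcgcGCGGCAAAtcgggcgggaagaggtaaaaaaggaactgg
EXO1, chr1:241848178-241848233, plus strand: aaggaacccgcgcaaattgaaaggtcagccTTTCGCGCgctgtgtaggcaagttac
MSH6, chr2:47783118-47783174, plus strand: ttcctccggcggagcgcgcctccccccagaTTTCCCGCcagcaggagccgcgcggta
The capitals begin at transcribed base 22 in XRCC2, 172 bases before the start in FANCA, 2 bases before the start in FANCD2, 32 bases before the start in RMI1, at transcribed base 5 in EXO1 and at transcribed base 4 in MSH6. Of the 8 genes with such letters, FANCC, which also fell at 12.5% on day 6, and PMS2 are not shown.

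Most of the repair genes were lower without histidine on day 6. Without histidine 31 of the 37 members fell relative to 100%, where 16.5% of all genes tested fell, and 2 rose, where 13.3% of all genes rose. The members' median log2 change was -0.99, against 0.03 over all genes tested. The members were chosen with earlier results of these data known, so their counts beside these shares are not an independent test. Among roles, 4 of 5 genes of the BRCA complexes fell, as did all 4 recombination paralogs (RAD51C, RAD51D, XRCC2 and XRCC3), all 3 strand exchange factors (RAD51AP1, RAD54L and RAD54B), 8 of 9 genes of the Fanconi core and its conjugating enzyme, both genes of the FANCD2-FANCI pair, all 4 of the dissolution complex, 3 of 5 resection genes, 2 of 3 nuclease genes and 1 of 2 mismatch repair genes. PALB2, RAD50, MUS81 and PMS2 did not pass the test. Leaving out each library in turn left 29 to 32 members called. The calls of XRCC3, FANCM and NBN each ended with any of 4 libraries left out (adjusted p up to 0.123, 0.250 and 0.475), that of TOP3A with any of 3 (up to 0.123) and that of FANCF without replicate 1 of the histidine-free group (0.0559).

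Beside this fall, the summed level of the dividing-cell genes MKI67, TOP2A and PCNA was 18785 to 22760 without histidine and 48603 to 53674 at 100% on day 6. On that day it was 50182 to 55714 at 12.5%, overlapping 100%, and 62191 to 62312 at 25% and 54335 to 61361 at 50%, both above 100%. On day 9 it was 38991 to 44332 at 12.5%, 59555 to 60497 at 25%, 45918 to 50484 at 50% and 46348 to 47460 at 100%. The part of dividing cells in the members' change was not tested, and in bulk RNA fewer cells of a kind and less RNA per cell cannot be told apart. Without the 6 keratin-high libraries the members' median change without histidine was -0.88. NBN then had a log2 change of 1.48, set against the single 100% library left on day 6. That library had 322 normalized counts of NBN, and the others at 100% had 838 and 764.

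**Figure D1:**
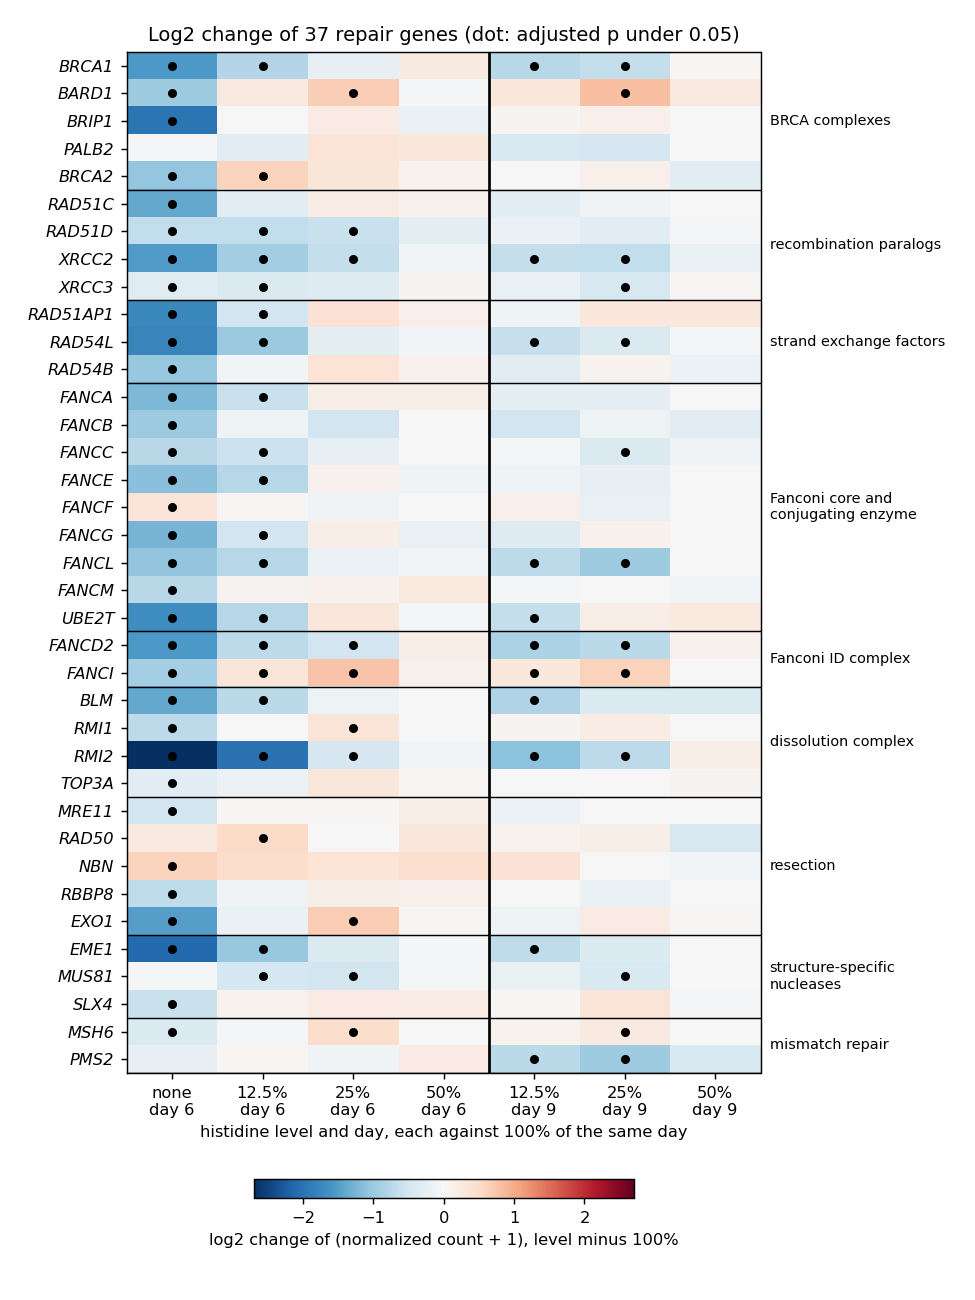
Log2 change of each of the 37 genes at each histidine level against 100% of the same day, in rows grouped by role, with a dot where the adjusted p was under 0.05. The leftmost column, without histidine, holds 31 falls and 2 rises, the columns at 50% hold no dot, and the columns at 25% mix falls with rises.

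At 12.5% histidine on day 6 most of the called members were lower and a few were higher. Here 17 fell (15.3% of all genes did), BRCA2, RAD50 and FANCI rose, 3 in all (11.7% of all genes did), and 17 passed in neither direction. The median log2 change was -0.29, against 0.04 over all genes. Of the 9 genes of the Fanconi core and its conjugating enzyme 6 fell, FANCA, FANCC, FANCE, FANCG, FANCL and UBE2T. Of the 5 resection genes none fell. The call of XRCC3 ended without replicate 1 or 2 at 100% or replicate 2 at 12.5% (adjusted p 0.0513 to 0.0625), that of RAD50 without replicate 2 at 100% (log2 change 0.34) or replicate 1 at 12.5% (0.49), and those of RAD51AP1 (-0.32) and FANCG (-0.38) without replicate 1 at 12.5%. Without the 6 keratin-high libraries 11 fell and 2 rose, and BRCA2, XRCC3, RAD51AP1, FANCA, FANCL, BLM, RAD50 and MUS81 lost their calls.

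At 25% on day 6 the members split. BARD1, FANCI, RMI1, EXO1 and MSH6 rose, 5 genes in all (6.79% of all genes rose), and RAD51D, XRCC2, FANCD2, RMI2 and MUS81 fell, also 5 (6.92% of all genes fell). The median was 0.12, against 0.00 over all genes. With 2 libraries at 25%, calls depended on single libraries: 5 to 9 members were called when a library was left out, 5 of them without replicate 2 at 25%, where BARD1 (log2 change 0.47), XRCC2 (-0.50) and FANCD2 (-0.46) lost their calls. RAD51D lost its call without replicate 3 at 25% (-0.55), and RMI1 and RMI2 without either (adjusted p 0.0974 to 0.141) or without some 100% libraries. Without the keratin-high libraries 4 members rose and none fell. FANCI, EXO1 and MSH6 kept their calls in each of these refits, and NBN was added to them without the keratin-high libraries.

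At 50% histidine no member passed the test on either day. On day 6 no gene of all those tested passed (0%), while 695 genes and 1 member, BRCA1, had an unadjusted p under 0.05. A single gene passed on day 9 (0.00532%), while 906 genes and 1 member, RAD50, had an unadjusted p under 0.05. With estimated library weights RAD50 was called higher at 50% on day 6 (log2 change 0.47).

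On day 9 the levels of 12.5% and 25% each held 10 falls. At 12.5% on day 9, 10 members fell (11.5% of all genes did) and FANCI rose (9.35% of all genes did), with a median of -0.18 against 0.03 over all genes. At 25% on day 9, 10 members fell (8.76% of all genes did) and 3 rose (9.40% of all genes did), with a median of -0.14 against 0.00. Without the keratin-high libraries 5 fell and 2 rose at 25% on day 9. At 12.5% the same 6 libraries left out gave 9 falls and 1 rise, with the call of PMS2 lost (log2 change -0.73, adjusted p = 0.0513). That call also ended with any of 5 single libraries left out (adjusted p up to 0.168). At 25% those of FANCC and MSH6 ended with any of 5 and any of 4 left out (up to 0.245 and 0.159), that of PMS2 without replicate 2 at 25% (log2 change -0.72) and that of XRCC3 without replicate 3 at 25% (-0.33).

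The days have separate libraries throughout, so their calls can be set side by side. At 12.5%, 9 members fell on both days: BRCA1, XRCC2, RAD54L, FANCL, UBE2T, FANCD2, BLM, RMI2 and EME1. They are 52.9% of those that fell on day 6 and 90.0% of those that fell on day 9, and PMS2 fell on day 9 alone. At 25%, XRCC2, FANCD2, RMI2 and MUS81 fell on both days (80.0% of the day 6 falls and 40.0% of the day 9 falls), and BARD1, FANCI and MSH6 rose on both. Without the keratin-high libraries XRCC2, FANCD2, RMI2, MUS81 and BARD1 lost their day 6 calls (log2 changes -0.46, -0.47, -0.46, -0.37 and 0.57). On day 9 XRCC2, MUS81 and MSH6 lost theirs (-0.50, -0.36 and 0.24). That setting leaves a single 100% library on day 6 and a single 25% library on day 9. No member fell on one day and rose on the other by the test at either level. The shares of all genes called on both days were not computed, so these overlaps are not set against them.

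Set against 12.5%, the histidine-free libraries of day 6 were lower again for most members. Of the 37, 25 fell (8.26% of all genes did) and FANCF and MUS81 rose (7.00% of all genes did), with a median of -0.68. The largest of these falls were those of BRIP1, BRCA2 and EXO1, which fell by 1.99, 1.66 and 1.31 on the log2 scale. FANCB, FANCF, FANCM and BLM lost their calls in this comparison with 1 library left out (adjusted p 0.0502 to 0.235 over the 17 such refits). Without the keratin-high libraries 24 fell and 2 rose, and FANCM lost its call. Between 12.5% and 25%, a comparison added after the data were seen, 18 members fell on day 6 (10.7% of all genes did) and RAD50 rose (7.08% of all genes did). Of these 19 calls 10 stood whichever library was left out, and 17 stood without the keratin-high libraries, where RAD51C and BLM lost theirs. On day 9, 6 fell (4.42% of all genes did), BARD1, RAD54L, UBE2T, FANCI, RMI2 and EXO1, and none rose (2.40% of all genes did). UBE2T and FANCI stood whichever library was left out, and UBE2T alone stood without the keratin-high libraries. A straight line through 100%, 50%, 25% and 12.5% sloped down per halving of histidine for 16 members on day 6 (15.9% of all genes) and up for BARD1, BRCA2 and FANCI (13.0%). The day 6 slope of RAD51AP1 lost its call with any of 9 libraries left out (adjusted p up to 0.286). Without the keratin-high libraries 12 of the 19 day 6 slope calls stood, and BARD1, BRCA2, XRCC3, RAD51AP1, FANCA, FANCL and BLM lost theirs. On day 9 it sloped down for 13 (14.4%) and up for BARD1 and FANCI (12.9%), where BARD1, PALB2, XRCC3 and PMS2 lost their calls with 1 library left out (adjusted p 0.0517 to 0.148 over these refits). Of the 15 day 9 slope calls 13 stood without the keratin-high libraries, where PALB2 and XRCC3 lost theirs.

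The BRCA complexes came apart by member. BRCA1, which with BARD1 forms a ubiquitin ligase that steers breaks toward recombination, had 619, 680 and 635 without histidine, 1032, 1227 and 1038 at 12.5%, 1589 and 1650 at 25%, 2311, 1995 and 2491 at 50% and 2078, 1884 and 1748 at 100% normalized counts on day 6. On day 9 it had 1232, 1599 and 1287 at 12.5%, 1410, 1337 and 1690 at 25%, 2487 and 2263 at 50% and 2301, 2162 and 2400 at 100%. Its libraries without histidine and at 12.5% lay under every 100% library of their day, while those at 50% reached into or above the 100% range. BRCA1 fell without histidine (log2 change -1.56 ± 0.11 SE, adjusted p = 1.45e-10), at 12.5% on day 6 (log2 change -0.79 ± 0.11 SE, adjusted p = 1.17e-05) and day 9 (log2 change -0.75 ± 0.11 SE, adjusted p = 3.12e-05) and at 25% on day 9 (log2 change -0.64 ± 0.11 SE, adjusted p = 0.000194). BARD1, its partner, had 356, 421 and 442 without histidine, 858, 960 and 1030 at 12.5%, 1435 and 1100 at 25%, 802, 771 and 730 at 50% and 813, 725 and 847 at 100% on day 6 and 957, 1291 and 1095 at 12.5%, 1628, 1754 and 1416 at 25%, 962 and 1209 at 50% and 856, 1030 and 848 at 100% on day 9. It was lowest without histidine and highest at 25% on both days, where no library overlapped those at 100%. BARD1 fell without histidine by 0.97 on the log2 scale and rose at 25% on day 6 (log2 change 0.66 ± 0.14 SE, adjusted p = 0.00282) and day 9 (log2 change 0.81 ± 0.13 SE, adjusted p = 8.54e-05).

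BRCA2, a mediator of filament assembly, had 466, 340 and 238 without histidine, 1022, 1139 and 1022 at 12.5%, 994 and 774 at 25%, 716, 727 and 798 at 50% and 657, 805 and 636 at 100% normalized counts on day 6. Each histidine-free library lay under, and each 12.5% library over, the range at 100%. It fell without histidine (log2 change -1.05 ± 0.16 SE, adjusted p = 1.94e-05) and rose at 12.5% on day 6 (log2 change 0.61 ± 0.16 SE, adjusted p = 0.00649), and leaving out the keratin-high libraries gave 0.74 with an adjusted p of 0.0562. On day 9 BRCA2 had 840, 939 and 938 at 12.5%, 929, 1147 and 954 at 25%, 720 and 755 at 50% and 824, 931 and 1003 at 100%, with a log2 change of -0.02 at 12.5%. BRIP1, a helicase that binds BRCA1, had 135, 121 and 105 without histidine, 400, 575 and 477 at 12.5%, 565 and 534 at 25%, 397, 443 and 426 at 50% and 479, 608 and 364 at 100% on day 6. Only the histidine-free libraries stood apart, at 105 to 135 against 364 or more elsewhere on that day (log2 change -1.97 ± 0.22 SE, adjusted p = 1.70e-07). PALB2, which bridges BRCA1 and BRCA2, passed no comparison with 100% and had a log2 change of -0.05 without histidine.

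Among the recombination paralogs, which help to form and hold that filament, XRCC2 moved most. XRCC2 (chromosome 7, 152644779 to 152676165 of GRCh38, minus strand) had 481, 354 and 359 without histidine, 622, 626 and 538 at 12.5%, 665 and 801 at 25%, 1044, 953 and 1267 at 50% and 1161, 1256 and 1004 at 100% normalized counts on day 6 and 617, 658 and 673 at 12.5%, 574, 721 and 629 at 25%, 835 and 965 at 50% and 1049, 1017 and 993 at 100% on day 9. Every library at 25% or less lay under every 100% library of its day. XRCC2 fell in each of these comparisons, by 1.52 without histidine, 0.93 at 12.5% and 0.64 at 25% on day 6, and by 0.65 at 12.5% and 0.67 at 25% on day 9 (adjusted p 0.00339 or less in each limma test). RAD51D, which partners XRCC2, fell by 0.61 to 0.67 on the log2 scale at all 3 of the lower levels of day 6 and had changes of -0.18 and -0.28 on day 9, both short of the test. Of the comparisons with 100%, RAD51C fell in that without histidine alone (log2 change -1.39 ± 0.15 SE, adjusted p = 1.78e-07).

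XRCC3, the paralog that pairs with RAD51C, had 1122, 1029 and 1231 without histidine, 1166, 1027 and 1077 at 12.5%, 971 and 1281 at 25%, 1460, 1405 and 1636 at 50% and 1462, 1491 and 1293 at 100% normalized counts on day 6. The libraries without histidine and at 12.5% lay below those at 100% (log2 change -0.33 ± 0.11 SE, adjusted p = 0.0270 without histidine and log2 change -0.38 ± 0.11 SE, adjusted p = 0.0138 at 12.5%). The day 9 values were 1048, 1079 and 1218 at 12.5%, 992, 1065 and 817 at 25%, 1414 and 1249 at 50% and 1264, 1293 and 1316 at 100%, and XRCC3 fell at 25% (log2 change -0.44 ± 0.11 SE, adjusted p = 0.00659). The XRCC3 result is uncertain. Its exons share 5756 bases with KLC1 on the opposite strand, the strand setting of the counting is not given in the sources used here, and KLC1 had 2480 against 1919 normalized counts without histidine (log2 change 0.38, adjusted p = 0.00328).

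The strand exchange factors fell together without histidine. RAD54L, a motor protein that drives strand exchange (chromosome 1, 46247688 to 46278473, plus strand), had 611, 558 and 586 without histidine, 914, 1092 and 1017 at 12.5%, 1763 and 1681 at 25%, 1980, 1896 and 1878 at 50% and 2007, 2130 and 1956 at 100% normalized counts on day 6. Day 9 libraries had 1442, 1520 and 1493 at 12.5%, 1819, 1817 and 1682 at 25%, 2275 and 2213 at 50% and 2245, 2450 and 2206 at 100%. The day 6 group means climbed at each step of histidine, and no library without histidine or at 12.5% overlapped those at 100%. RAD54L fell without histidine (log2 change -1.79 ± 0.07 SE, adjusted p = 4.01e-14), at 12.5% on day 6 (log2 change -1.01 ± 0.07 SE, adjusted p = 2.48e-09) and on day 9 (log2 change -0.63 ± 0.07 SE, adjusted p = 2.02e-06). At 25% on day 9 RAD54L fell as well (log2 change -0.38, adjusted p = 0.000858 in limma). Without the keratin-high libraries, which leaves a single 25% library on that day, the change was -0.34. RAD51AP1, which stimulates the same exchange, had 283, 191 and 242 without histidine, 428, 560 and 712 at 12.5%, 1104 and 986 at 25%, 832, 859 and 893 at 50% and 762, 809 and 794 at 100% on day 6 and 642, 637 and 575 at 12.5%, 868, 752 and 849 at 25%, 924 and 721 at 50% and 667, 694 and 659 at 100% on day 9. On day 6 its libraries at 25% lay above those at 100% and its libraries at 12.5% below. It fell without histidine (log2 change -1.74 ± 0.14 SE, adjusted p = 2.09e-09) and at 12.5% on day 6 (log2 change -0.51 ± 0.14 SE, adjusted p = 0.0108), while on day 9 the change at 12.5% was -0.12 and did not pass. RAD54B, a relative of RAD54L that shares 3139 exonic bases on one strand with FSBP, fell without histidine by 1.02 on the log2 scale, while FSBP fell by 1.21.

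In the Fanconi core, whose subunits FANCA, FANCB, FANCC, FANCE, FANCF, FANCG, FANCL and FANCM make up a ubiquitin ligase, changes without histidine ran from -1.25 for FANCG to 0.34 for FANCF. FANCL, the subunit with the ligase activity, had 262, 268 and 210 at 12.5%, 190, 235 and 193 at 25%, 427 and 370 at 50% and 365, 428 and 416 at 100% normalized counts on day 9. Every library at 12.5% and 25% lay below those at 50% and 100%. FANCL fell at 12.5% (log2 change -0.71 ± 0.17 SE, adjusted p = 0.00334) and 25% (log2 change -0.97 ± 0.17 SE, adjusted p = 0.000196) on day 9. On day 6 it had 202, 150 and 155 without histidine, 186, 234 and 200 at 12.5%, 313 and 321 at 25%, 332, 368 and 308 at 50% and 456, 366 and 261 at 100%, and it fell by 1.07 without histidine, where leaving out the keratin-high libraries gave a log2 change of -0.64, while its call at 12.5% was then lost (log2 change -0.34). FANCF, an adaptor of the core, had 612, 543 and 560 without histidine against 464, 446 and 439 at 100% on day 6. It was the only core gene that rose (log2 change 0.34 ± 0.10 SE, adjusted p = 0.0110).

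UBE2T, the enzyme that hands ubiquitin to FANCL (chromosome 1, 202331657 to 202341980, minus strand), had 366, 415 and 409 without histidine, 577, 808 and 867 at 12.5%, 1587 and 1529 at 25%, 1280, 1424 and 998 at 50% and 1224, 1284 and 1287 at 100% normalized counts on day 6. Its day 9 levels were 824, 816 and 891 at 12.5%, 1475, 1435 and 1539 at 25%, 1726 and 1467 at 50% and 1283, 1320 and 1345 at 100%. The libraries at 25% stood above and those at 12.5% below the 100% range on both days. UBE2T fell without histidine (log2 change -1.67 ± 0.12 SE, adjusted p = 3.60e-10), at 12.5% on day 6 (log2 change -0.77 ± 0.12 SE, adjusted p = 6.52e-05) and on day 9 (log2 change -0.64 ± 0.12 SE, adjusted p = 0.000589). At 25% its changes of 0.30 on day 6 and 0.17 on day 9 did not pass. Relative to 25%, at 12.5% it fell by 1.07 on day 6 and fell by 0.81 on day 9.

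**Figure D2:**
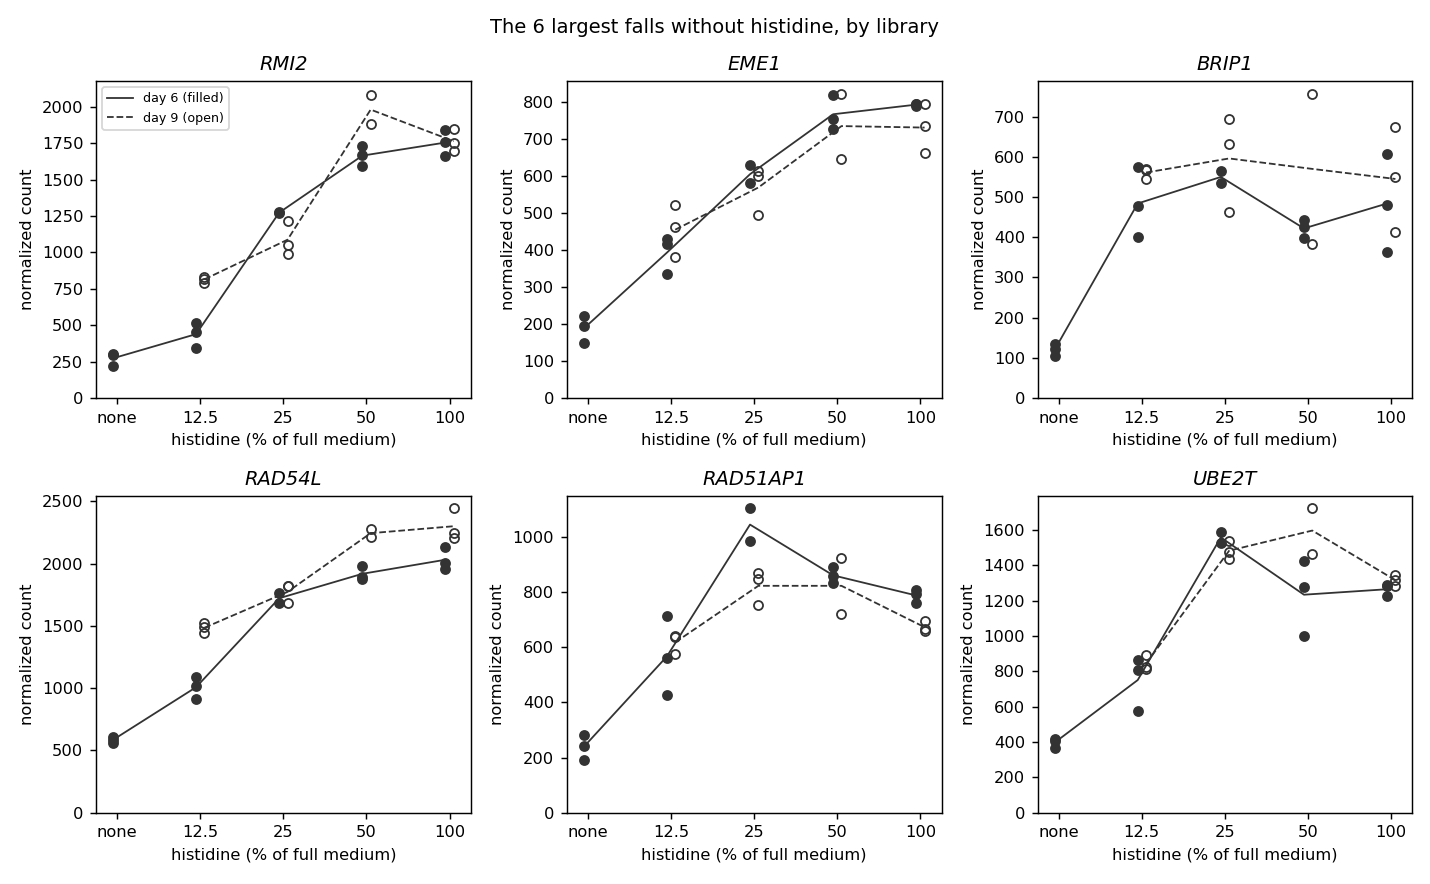
Normalized counts in each library of the 6 genes with the largest falls without histidine, by histidine level, with filled points and solid lines of group means for day 6 and open points and dashed lines for day 9. RMI2, EME1 and RAD54L climbed with each step up to 100% on day 6, whereas BRIP1 was low in the histidine-free libraries alone.

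FANCD2 and FANCI, which clamp DNA as a pair once they are ubiquitinated, moved in opposite directions at 12.5% and 25%. FANCD2 (chromosome 3, 10026414 to 10101930, plus strand) had 720, 565 and 607 without histidine, 1069, 971 and 1324 at 12.5%, 1240 and 1329 at 25%, 1994, 2098 and 2113 at 50% and 1741, 1952 and 1782 at 100% normalized counts on day 6. On day 9 it had 940, 1067 and 1016 at 12.5%, 1045, 1156 and 1091 at 25%, 2051 and 1887 at 50% and 1862, 1864 and 1746 at 100%. Every library at 25% or less lay under the 100% libraries of its day. FANCD2 fell without histidine (log2 change -1.54 ± 0.10 SE, adjusted p = 5.31e-11), at 12.5% on day 6 (log2 change -0.71 ± 0.10 SE, adjusted p = 1.57e-05) and day 9 (log2 change -0.86 ± 0.10 SE, adjusted p = 1.83e-06) and at 25% on day 6 (log2 change -0.51 ± 0.11 SE, adjusted p = 0.00338) and day 9 (log2 change -0.73 ± 0.10 SE, adjusted p = 1.46e-05).

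FANCI (chromosome 15, 89243949 to 89317261, plus strand) had 1483, 1541 and 1392 without histidine, 3250, 3546 and 3638 at 12.5%, 4878 and 4678 at 25%, 3082, 2840 and 3107 at 50% and 2900, 2821 and 2652 at 100% normalized counts on day 6. The day 9 values were 3198, 3335 and 3436 at 12.5%, 4328, 4177 and 3968 at 25%, 2555 and 2923 at 50% and 2813, 2679 and 2646 at 100%. On day 6 it was lowest without histidine, on both days it was highest at 25%, and every 12.5% and 25% library lay over the 100% libraries of its day. FANCI fell without histidine (log2 change -0.92 ± 0.07 SE, adjusted p = 1.01e-09) and rose at 12.5% on day 6 (log2 change 0.32 ± 0.07 SE, adjusted p = 0.00219), at 12.5% on day 9 (log2 change 0.29 ± 0.07 SE, adjusted p = 0.00538), at 25% on day 6 (log2 change 0.78 ± 0.08 SE, adjusted p = 1.21e-06) and at 25% on day 9 (log2 change 0.62 ± 0.07 SE, adjusted p = 2.34e-06). POLG, which shares 458 exonic bases with FANCI on the opposite strand, had log2 changes of -0.17 at 12.5% and -0.43 at 25% on day 6.

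Within a library, the ratio of FANCI to FANCD2 counts was 2.06 to 2.73 without histidine, 2.75 to 3.65 at 12.5%, 3.52 to 3.93 at 25%, 1.35 to 1.55 at 50% and 1.45 to 1.66 at 100% on day 6. On day 9 it was 3.13 to 3.40 at 12.5%, 3.61 to 4.14 at 25%, 1.25 to 1.55 at 50% and up to 1.52 at 100%. The ratio at every level of 25% or less lay over the 100% range of its day. Counts are not divided by gene length, so these ratios show how the pair shifted between groups and not which partner was the more abundant. The pairs were picked after the values were seen, and no test of the ratios is given.

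The ratio of BARD1 to BRCA1 shifted the same way. It was 0.575 to 0.696 without histidine, 0.782 to 0.992 at 12.5%, 0.667 to 0.903 at 25%, 0.293 to 0.386 at 50% and 0.385 to 0.484 at 100% on day 6, and on day 9 it was 0.777 to 0.851 at 12.5%, 0.838 to 1.31 at 25%, 0.387 to 0.534 at 50% and 0.353 to 0.476 at 100%. For RMI1 to RMI2 it was 1.04 to 1.32 without histidine and 1.06 to 1.33 at 12.5%, against 0.279 to 0.302 at 100% on day 6, and 0.846 to 0.905 at 12.5% against 0.339 to 0.451 at 100% on day 9. For MUS81 to EME1 it was 5.20 to 6.89 without histidine and 1.76 to 2.69 at 12.5%, against 1.31 to 1.54 at 100% on day 6. At 25% the MUS81 to EME1 ratio (1.30 to 1.35 on day 6) overlapped that at 100%.

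**Figure D3:**
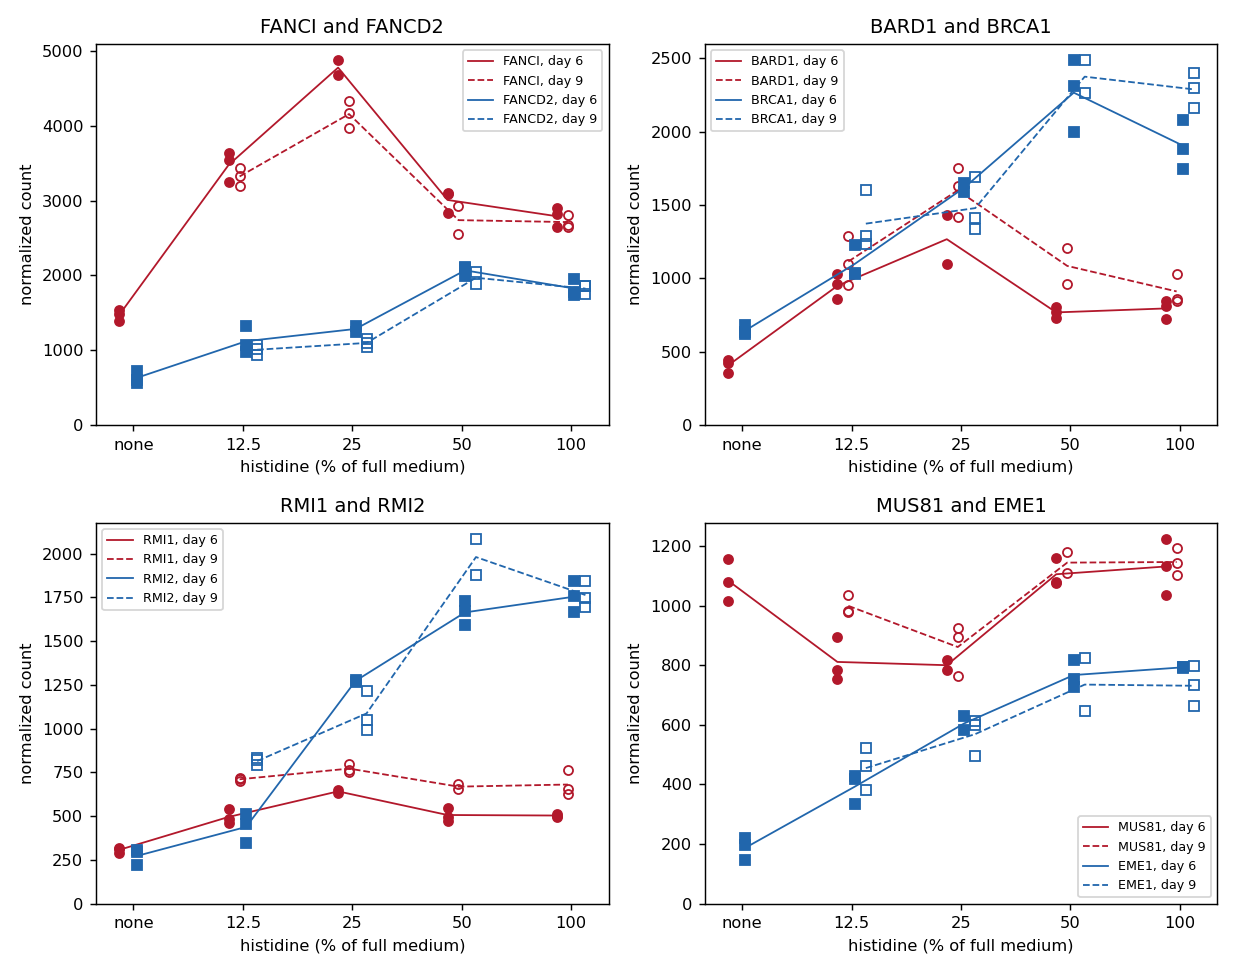
Normalized counts of 4 pairs of partner proteins in each library by histidine level, with the members of a pair in red and blue, filled points for day 6 and open points for day 9, and lines through group means. FANCI and BARD1 peaked at 25% while FANCD2 and BRCA1 stayed below their 100% levels there.

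The dissolution complex held the member with the largest fall of all 37. RMI2, a small subunit that steadies the BLM complex (chromosome 16, 11249619 to 11381662, plus strand), had 221, 293 and 305 without histidine, 345, 456 and 514 at 12.5%, 1277 and 1268 at 25%, 1730, 1670 and 1592 at 50% and 1841, 1664 and 1757 at 100% normalized counts on day 6. Day 9 libraries had 831, 793 and 820 at 12.5%, 991, 1052 and 1217 at 25%, 2083 and 1878 at 50% and 1748, 1694 and 1846 at 100%. The histidine-free and 12.5% libraries of day 6 lay under all others, and on day 9 the group means climbed from 12.5% to 50%. RMI2 fell without histidine (log2 change -2.69 ± 0.12 SE, adjusted p = 1.89e-13), at 12.5% on day 6 (log2 change -2.01 ± 0.12 SE, adjusted p = 1.13e-10) and at 12.5% on day 9 (log2 change -1.11 ± 0.12 SE, adjusted p = 7.20e-07). The fall at 12.5% was smaller on day 9 than on day 6 by 0.90 ± 0.17 SE (adjusted p = 0.0435), the only member called in that test, which called 0.0638% of all genes. That call was lost with any of 11 of the 12 libraries left out, with an adjusted p of 0.0674 to 0.158 and a difference of 0.74 to 0.94. The corresponding test at 25% called no member and 0.00532% of all genes, with 7 members and 1034 genes at an unadjusted p under 0.05.

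BLM, the helicase of the complex, had 246, 179 and 214 without histidine, 337, 277 and 401 at 12.5%, 544 and 456 at 25%, 524, 510 and 602 at 50% and 606, 582 and 474 at 100% normalized counts on day 6 and 364, 507 and 284 at 12.5%, 558, 455 and 527 at 25%, 437 and 589 at 50% and 736, 636 and 622 at 100% on day 9. Each histidine-free and 12.5% library lay under those at 100%. BLM fell without histidine (log2 change -1.38 ± 0.18 SE, adjusted p = 2.04e-06), at 12.5% on day 6 (log2 change -0.72 ± 0.18 SE, adjusted p = 0.00400) and on day 9 (log2 change -0.82 ± 0.18 SE, adjusted p = 0.00168). RMI1, the other small subunit, fell without histidine (log2 change -0.71 ± 0.09 SE, adjusted p = 1.45e-06), had a change of -0.02 at 12.5% on day 6 and rose at 25% on day 6 (log2 change 0.35 ± 0.10 SE, adjusted p = 0.0208). TOP3A, the topoisomerase, had the smallest change of the complex without histidine (log2 change -0.29 ± 0.10 SE, adjusted p = 0.0265).

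Of the 5 resection genes MRE11, RBBP8 and EXO1 fell without histidine. MRE11, the nuclease of the MRE11-RAD50-NBN complex that starts resection, had 956, 706 and 745 without histidine, 1113, 1181 and 1144 at 12.5%, 1080 and 1212 at 25%, 1353, 1121 and 1291 at 50% and 1049, 1106 and 1214 at 100% normalized counts on day 6. Its histidine-free libraries lay below the rest, and those at 12.5% and 25% overlapped the 100% range. MRE11 fell without histidine (log2 change -0.49 ± 0.11 SE, adjusted p = 0.000922) and had changes of 0.03 at 12.5% on day 6 and -0.16 on day 9. RAD50 had 625, 571 and 602 at 12.5% against 505, 324 and 445 at 100% on day 6. It rose there (log2 change 0.52 ± 0.15 SE, adjusted p = 0.0138), and on day 9 its change was 0.10. NBN had 1056, 837 and 824 without histidine against 838, 764 and 322 at 100% on day 6. The groups overlapped, and the called change (log2 change 0.61 ± 0.23 SE, adjusted p = 0.0473) rested on 100% replicate 3, without which it was 0.17 with an adjusted p of 0.475.

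EXO1, a nuclease that extends resected ends, had 338, 281 and 322 without histidine, 778, 752 and 806 at 12.5%, 1365 and 1439 at 25%, 858, 946 and 893 at 50% and 877, 858 and 892 at 100% normalized counts on day 6. The histidine-free libraries were the lowest and the 25% libraries the highest, with neither overlapping those at 100%. EXO1 fell without histidine (log2 change -1.48 ± 0.08 SE, adjusted p = 4.07e-12) and rose at 25% on day 6 (log2 change 0.68 ± 0.09 SE, adjusted p = 2.10e-05), and on day 9 its change at 25% was 0.22 and did not pass. RBBP8, which prompts MRE11 to cut, fell without histidine by 0.69 on the log2 scale and passed no other comparison with 100%.

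Of the nucleases, EME1 fell most without histidine, and its catalytic partner MUS81 did not follow it there. EME1 (chromosome 17, 50373220 to 50381483, plus strand) had 222, 196 and 148 without histidine, 334, 417 and 429 at 12.5%, 582 and 629 at 25%, 755, 727 and 818 at 50% and 795, 795 and 790 at 100% normalized counts on day 6. Its day 9 levels were 522, 463 and 381 at 12.5%, 494, 613 and 600 at 25%, 823 and 646 at 50% and 796, 663 and 735 at 100%. The day 6 group means climbed at each step of histidine, and no histidine-free or 12.5% library overlapped those at 100%. EME1 fell without histidine (log2 change -2.09 ± 0.14 SE, adjusted p = 1.03e-10), at 12.5% on day 6 (log2 change -1.02 ± 0.14 SE, adjusted p = 1.41e-05) and on day 9 (log2 change -0.69 ± 0.14 SE, adjusted p = 0.00113). MUS81 had 1156, 1080 and 1016 without histidine, which overlapped 1224, 1133 and 1037 at 100% (log2 change -0.06 ± 0.09 SE, adjusted p = 0.670). At 12.5% and 25% on day 6 MUS81 fell by 0.48 and 0.50 on the log2 scale, and at 25% on day 9 it fell as well (log2 change -0.42). It rose without histidine relative to 12.5% (log2 change 0.42 ± 0.09 SE, adjusted p = 0.00209). SLX4, the scaffold that gathers these nucleases, fell without histidine (log2 change -0.60 ± 0.12 SE, adjusted p = 0.000666).

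Of the mismatch repair genes, MSH6, which recognizes mismatches, had 2004, 2388 and 2085 without histidine, 2682, 2665 and 2816 at 12.5%, 3888 and 3970 at 25%, 2979, 3138 and 2576 at 50% and 2910, 2838 and 2777 at 100% normalized counts on day 6 and 3764, 3948 and 3558 at 12.5%, 4017, 4168 and 4405 at 25%, 3641 and 3509 at 50% and 3642, 3663 and 3315 at 100% on day 9. The histidine-free libraries were the lowest and the 25% libraries the highest of day 6. MSH6 fell without histidine (log2 change -0.40 ± 0.08 SE, adjusted p = 0.000423) and rose at 25% on day 6 (log2 change 0.47 ± 0.09 SE, adjusted p = 0.000875) and day 9 (log2 change 0.25 ± 0.08 SE, adjusted p = 0.0341). PMS2, which acts after a mismatch is recognized, had 341, 407 and 253 at 12.5%, 328, 199 and 332 at 25%, 497 and 339 at 50% and 524, 578 and 534 at 100% on day 9, with every library at 12.5% and 25% under those at 100%. It fell at 12.5% (log2 change -0.73 ± 0.24 SE, adjusted p = 0.0319) and 25% (log2 change -0.96 ± 0.24 SE, adjusted p = 0.00607), and on day 6 its changes without histidine and at 12.5% were -0.22 and 0.05. PMS2 has near-identical pseudogenes to which its reads may go, and its values are uncertain for that reason.

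With full histidine, 3 members were higher on day 9 than on day 6 (2.17% of all genes changed): RMI1 (log2 change 0.43 ± 0.09 SE, adjusted p = 0.0116), EXO1 (log2 change 0.35 ± 0.08 SE, adjusted p = 0.0270) and MSH6 (log2 change 0.32 ± 0.08 SE, adjusted p = 0.0376). RMI1 had 655, 763 and 625 normalized counts on day 9 against 513, 502 and 497 on day 6. The days did not overlap for any of the 3. The calls of EXO1 and MSH6 ended with any of 5 libraries left out (adjusted p up to 0.129 and 0.154) and that of RMI1 without replicate 2 of either day (up to 0.0874).

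Exons of 14 members overlap those of another gene in the table, 13 of them on the opposite strand, by GENCODE 29 on GRCh38, and the authors may have counted on another annotation. The libraries were strand-specific per the labels' protocols. The longer overlaps are those of XRCC3, RAD54B, FANCA with ZNF276 (2302 bases), MSH6 with FBXO11 (1785), RAD54L with LRRC41 (806), MUS81 with CFL1 (759) and EME1 with LRRC59 (541). Without histidine ZNF276 rose by 0.64 and FBXO11 by 0.24 on the log2 scale, LRRC59 fell by 0.35, and LRRC41 and CFL1 had changes of 0.21 and -0.12. ZNF276 and FBXO11 thus rose where FANCA and MSH6 fell, and the part of reads shared across strands was not tested.

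Other genes of the same pathways fell as well without histidine and at 12.5% on day 6. Of 49 other recombination and Fanconi genes 25 fell and 1 rose without histidine (median log2 change -0.43), and 19 fell and 2 rose at 12.5% on day 6 (-0.23). Of all genes 16.5% fell and 13.3% rose in the first comparison, and 15.3% fell and 11.7% rose in the second. POLQ, which joins ends by short matches, had the largest fall without histidine, at -1.64. At 12.5% the largest falls were those of RPA3, CENPS and SLX1A on day 6 (-1.14, -1.05 and -1.05) and SLX1A, ABRAXAS1 and RPA3 on day 9 (-0.80, -0.76 and -0.66). On day 9 at 12.5%, 9 fell and 1 rose (11.5% and 9.35% of all genes did). At 25% on day 6, 2 fell and 5 rose (6.92% and 6.79% of all genes did). At 25% on day 9, 3 fell and 6 rose (8.76% and 9.40% of all genes did).

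Neighbouring pathways are given beside the 16.5% of all genes that fell and 13.3% that rose without histidine. Of 5 other mismatch repair genes 1 fell without histidine, and of 13 end-joining genes, which rejoin broken ends without a template, 4 fell and 1 rose. Of 17 damage signalling genes 8 fell and 2 rose, with log2 changes of -1.53 to 1.17 over the list. Among the falls were those of the checkpoint kinases CHEK2 (-1.53) and CHEK1 (-1.26). All 6 subunits of the MCM replicative helicase fell without histidine (median -1.15) and at 12.5% on day 6 (-0.74) and day 9 (-0.57). At 12.5%, 15.3% of all genes fell on day 6 and 11.5% on day 9. Of 13 E2F and retinoblastoma genes 6 fell and none rose without histidine. At 25% on day 6, 1 fell and 6 rose (6.92% and 6.79% of all genes did). Among the rises were E2F8 (1.02), E2F2 (0.47) and E2F1 (0.35), which were named after their values were seen.

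**Figure D4:**
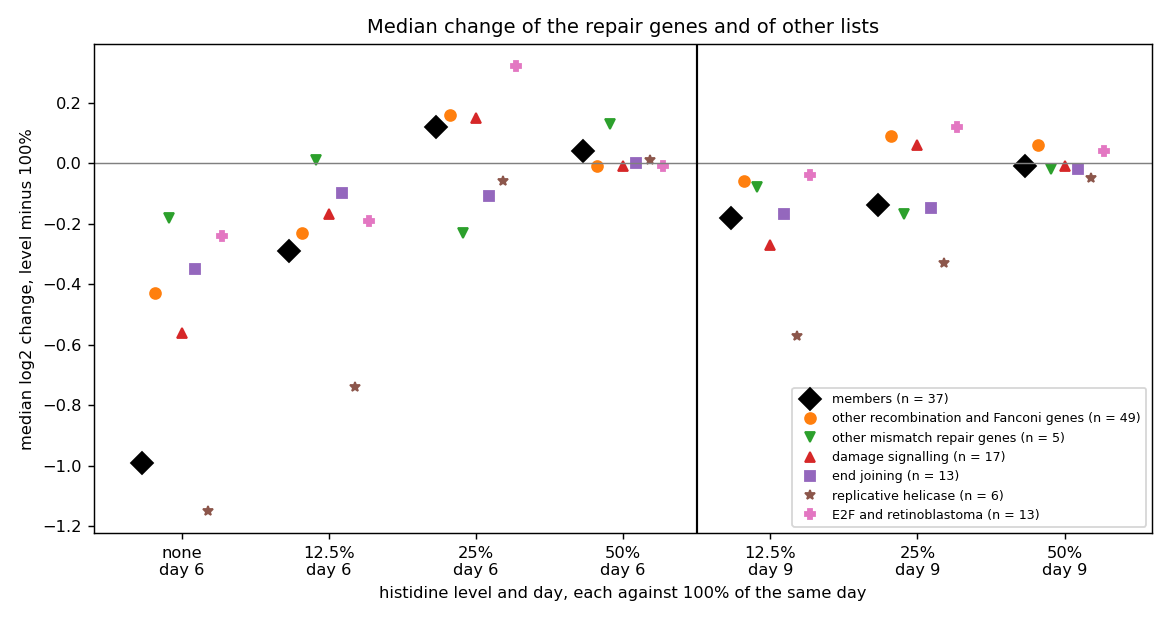
Median log2 change of the 37 members and of 6 other gene lists at each histidine level against 100% of the same day. Without histidine the members' median (-0.99) lay between that of the replicative helicase (-1.15) and those of the other lists, and at 25% on day 6 the members (0.12), damage signalling genes (0.15), other recombination genes (0.16) and E2F genes (0.32) lay above 0.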

How the data were processed

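Bulk RNA was extracted with a column kit and made into strand-specific libraries, per the labels' protocols. The deposited values are normalized counts, a signal that the authors scaled by DESeq2 1.44.0 size factors after kallisto 0.50.1, with FastQC 0.11.9 and GRCh38, per the submitters' processing notes and the table's own name. The sources used here give neither the annotation release nor the strand setting. Whole reads could not be recovered: per library, 37.8% to 76.1% of the values below 20 came within 0.05 of a whole read number. So no count test was run, read depth is unknown, and precision rests on the spread between libraries.

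Values were analysed as log2(normalized count + 1), a scale that understates the change of low genes. The filter kept genes at 10 or more in 2 or more libraries, 18799 of 31919, and all 37 members were among them. limma 3.58.1 (R 4.3.3) fitted 9 group means with a mean-variance trend and 16 residual degrees of freedom. Benjamini-Hochberg adjustment ran over all genes tested within each comparison, two-sided, with a threshold of 0.05. In the report "fell" and "rose" mean past that threshold, and each adjusted p comes from this limma fit. The fit was tested on simulated data with known changes, and the outcome is not given here. Those values were drawn independently for each library, with far fewer changed genes than were called without histidine. That simulation does not speak of the keratin-high libraries. Plots used Python 3.11.15 and matplotlib 3.10.9.

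The members and lists were chosen with earlier results of these data known. Values in each library were to be given for up to 6 falls and up to 4 rises of largest size in the comparisons of none and of 12.5% with 100%, and for BRCA1, BRCA2, FANCD2, FANCI, BLM, RAD51AP1, UBE2T, MRE11, MSH6 and XRCC3 whatever their values. BARD1, EXO1, MUS81 and RMI1 were given values outside that rule, after they were seen. Group assignment followed the sample titles. Alternatives were other pseudocounts, filters, scalings, variance models and library sets, and a replicate block. Some genes of the lists are counted but not reported here by name.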

Additional observations from a re-analysis of the deposited data

Results flagged for a closer look

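The fall of RMI2 at 12.5% histidine differed between the days, which is why it is listed here. Its log2 change against 100% was -1.11 on day 9 and -2.01 on day 6, and the difference was 0.90 ± 0.17 SE (adjusted p = 0.0435 in limma). All 3 day 9 libraries at 12.5% lay at 793 to 831 normalized counts, and all 3 day 6 libraries at 345 to 514. The call was kept in 1 of 12 refits that left out 1 library each, and the adjusted p was 0.365 without the keratin-high libraries. With groups of 2 or 3 libraries, no sample was examined for standing apart within its group.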

How the results depend on the processing

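Among the 8880 member values recomputed for the planned comparisons, no called change took the opposite sign. Of these values 8607 kept their side of the threshold, 202 lost their call and 71 gained one. Changes of sign among values not called in either fit were not counted. The added comparisons of 12.5% with 25% are outside these numbers. Without the 6 keratin-high libraries the called members numbered 13 at 12.5% on day 6 (20 with all libraries), 4 at 25% on day 6 (10), 7 at 25% on day 9 (13), 1 between the days at 100% (3, now NBN) and 0 for the day difference at 12.5% (1). The cause was not tested, and this setting leaves 1 control library on day 6. NBN was at 322 in that library, and at 838 and 764 in the other 100% libraries of that day. With estimated library weights 1 member was called at 50% on day 6, and with no filter on low values 1 between the days. The RMI2 day difference was not called with no mean-variance trend (0 members, adjusted p = 0.128) or with only the groups compared in the fit (0, adjusted p = 0.108).

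Leaving out each library in turn gave 29 to 32 called members without histidine, 17 to 20 at 12.5% and 5 to 9 at 25% on day 6, and 10 to 12 at 12.5% and 11 to 13 at 25% on day 9. At 50% it gave 0 on both days. It gave 23 to 26 for none against 12.5%, 18 to 20 and 12 to 16 for the slopes of day 6 and day 9, 0 to 2 between the days, 0 to 1 and 0 for the day differences at 12.5% and 25%, and 12 to 21 and 3 to 5 for 12.5% against 25% on day 6 and day 9. Where an arm was left with 1 library, that library was assumed to vary like the other groups.

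Samples with the same replicate number showed no shared deviation from their group means: 41 such pairs had correlations of -0.13 to 0.08. With groups this small, these correlations cannot tell whether samples of the same number were handled together. With the replicate block 32 members were called without histidine, 20 at 12.5% and 10 at 25% on day 6, and 11 and 13 on day 9. The planned count test was not run, because whole reads were not recovered. Read depth is unknown, 2 groups hold 2 libraries, and the part of cell number, cycle stage or shared reads across strands in these changes was not tested.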
